A study of Mus musculus with 4 samples.

Results

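Transcripts of 10 ADAMTS genes were followed in injured and uninjured articular cartilage of the mouse knee, in animals of 2 ages. The genes were Adamts1, Adamts2, Adamts3, Adamts4, Adamts5, Adamts6, Adamts9, Adamts12, Adamts14 and Adamts15. They were taken by gene symbol from a table of 24532 genes, where all 10 were found, and they are 10 of the 19 ADAMTS genes that the table lists. Each gene has 1 value in each of 4 RNA-seq libraries, named here by age and by operation (young sham, young injured, adult sham, adult injured). All mice were wild type of the C57BL/6 strain. Young mice were 3 weeks old. For adult mice the methods give 10 weeks, whereas the sample labels give 12 weeks in the title and 14 weeks in the age field. Injured cartilage was taken 3 days after a full-thickness cartilage injury (FTCI), a needle defect of the patellar groove, according to the methods. The labels of the same samples name DMM, the surgical destabilization of the medial meniscus. The adult sham sample is labelled with days 3 to 14. Each library came from 1 pool of cartilage, from 10 mice after injury and from 5 mice without, so no difference between libraries has a replicate check and no p-value can be given.

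ADAMTS proteases are secreted zinc metalloproteases that cut components of the extracellular matrix. A first branch, here Adamts1, Adamts4, Adamts5, Adamts9 and Adamts15, cleaves large proteoglycans. Aggrecan, which gives cartilage its resistance to compression, is cut mainly by ADAMTS4 and ADAMTS5, the classical aggrecanases of osteoarthritis research, and versican, a proteoglycan of immature and repairing matrix, is cut by several members of that branch. A second branch, Adamts2, Adamts3 and Adamts14, removes the N-propeptide from fibrillar procollagens so that collagen can assemble into fibrils. Of the others, ADAMTS6 is linked to microfibrils of the matrix and ADAMTS12 has been described as a protease of COMP, the cartilage oligomeric matrix protein. Most members are made as inactive precursors and are trimmed by furin-like proprotein convertases. ADAMTS4 and ADAMTS5 are held in check by TIMP3.

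What makes all 10 members proteases is a short zinc-binding site in the catalytic domain. Its coding sequence is shown for 6 members because the results below turn on them: the aggrecanases Adamts4 and Adamts5, Adamts15, which was higher with Adamts4 in injured adult cartilage, and the 3 procollagen proteases, which went different ways with age. The sequences are 33 bases of spliced coding sequence of the GENCODE M21 annotation on build GRCm38, read 5′ to 3′ on the strand of the gene. Capitals mark the codons of the 3 histidines that hold the zinc and of the glutamate used in catalysis. In every member an intron splits the site, so the coordinates span the end of an exon, an intron and the start of the next exon.
Adamts4 at chr1:171253210-171253915, plus strand, exons 3 and 4: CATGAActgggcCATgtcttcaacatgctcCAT
Adamts15 at chr9:30911255-30911690, minus strand, exons 2 and 3: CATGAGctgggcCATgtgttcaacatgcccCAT
Adamts5 at chr16:85878015-85887826, minus strand, exons 2 and 3: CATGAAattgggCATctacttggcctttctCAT
Adamts2 at chr11:50775403-50776134, plus strand, exons 7 and 8: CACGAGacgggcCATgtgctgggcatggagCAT
Adamts3 at chr5:89707433-89707818, minus strand, exons 8 and 9: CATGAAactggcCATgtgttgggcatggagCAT
Adamts14 at chr10:61225465-61227123, minus strand, exons 7 and 8: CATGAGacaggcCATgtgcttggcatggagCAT
Across all 10 members 12 of the 33 bases were identical. Adamts4 and Adamts15 shared 30 of 33 bases, as did Adamts2 and Adamts14, and Adamts3 shared 29 with either of the latter. Adamts4 and Adamts5 shared only 19, although both are aggrecanases. Over the whole protein, Adamts2 and Adamts3 were the closest pair of members, with 60.9% identical residues in the aligned part. Adamts4 was 51.2% identical to Adamts1, 48.7% to Adamts15 and 43.8% to Adamts5. Despite this relatedness the transcripts differ in sequence: between 0% and 1.81% of the 31-base words of a member also occurred on the same strand of another gene. On the other strand the share was up to 11.4%, in Adamts9.

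Cartilage transcripts were present in all 4 libraries, with all 9 chondrocyte markers at 1 FPKM or more in each (FPKM is a fragment count corrected for how long the transcript is and how deeply the library was sequenced). Their sum was 20172 and 17688 FPKM in young sham and young injured cartilage, and 8004 and 7848 FPKM in adult sham and adult injured cartilage. Among these markers the cartilage matrix genes Matn1 and Matn3 were far lower in adults, Matn1 at 1661, 823, 2.65 and 16.8 FPKM and Matn3 at 392, 356, 2.30 and 1.48 FPKM in the order young sham, young injured, adult sham, adult injured, which is the order of all series of 4 values below. The labels give the cell type as chondrocyte, but markers of blood, bone and muscle were also present. Macrophage markers were higher after injury at both ages, all 9 of 9 by 2-fold or more, with sums of 191, 2031, 315 and 1744 FPKM. In bulk tissue, fewer cells of a type and less RNA per cell cannot be told apart. The depth was read from the regular steps on which the lowest values fall, and, if 1 step is 1 fragment, it was between 25700000 and 30700000 fragments per library. Intervals given below are 95% exact intervals for these approximate fragment numbers and cover counting error only, not the differences between mice or pools. For the 10891 genes with at least 1 FPKM everywhere, the median log2 ratio of injured to sham was -0.04 in young and 0.23 in adult mice. That of adult to young was -0.30 in sham and -0.07 in injured cartilage. As deposited, the adult sham library thus sat below the others for most genes. With median-of-ratios scaling the 4 medians were -0.02, -0.005, 0.02 and 0.009. With 1 library per group, an effect of injury or age on these medians cannot be told apart from the scaling of a library.

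The largest ratios after injury were those of Adamts4 in both young and adult mice, followed by Adamts3 in young and by Adamts15 in adult mice, where the plain FPKM ratio was larger for Adamts15 (9.68) than for Adamts4 (8.54). Between the sham libraries they were those of Adamts3, Adamts2 and Adamts5, and between the injured libraries that of Adamts3. Ratios are log2 ratios of FPKM + 1, which understate differences between low values, and a gene was counted at 2-fold or more. In young mice, 1 of 10 members was higher after injury (Adamts4) and 1 was lower (Adamts3), where 4.57% of the 18181 genes above 0 in any library were higher and 1.27% lower. The members' median was 0.21, against 0.00 for all genes. Of the 10 ratios 9 were above 0, against 47.4% of genes, or 7 with TPM and quantile scaling, against 38.6% and 40.3%. In adult mice, 2 members were higher after injury (Adamts4 and Adamts15) and 0 lower, where 6.90% of genes were higher and 1.46% lower. Here the median was 0.42, against 0.14 for all genes, and 6 of 10 ratios were above 0, against 67.2% of genes. Between the sham libraries, 3 members were higher in adults (Adamts1, Adamts2 and Adamts5) and 2 were lower (Adamts3 and Adamts9), where 2.66% of genes were higher and 10.6% lower. The median was -0.30, against -0.15 for all genes. Between the injured libraries, 0 members were higher in adults and 1 was lower (Adamts3), where 1.80% of genes were higher and 3.09% lower, with medians of -0.19 and -0.04. Rescaling the libraries moved these splits. With median-of-ratios scaling, genes were 866 higher and 455 lower for injury in adult, instead of 1255 and 266, and 972 higher and 1009 lower for age in sham, instead of 484 and 1934. With TPM scaling they were 625 higher and 619 lower for age in injured, instead of 328 and 561.

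**Figure D1:**
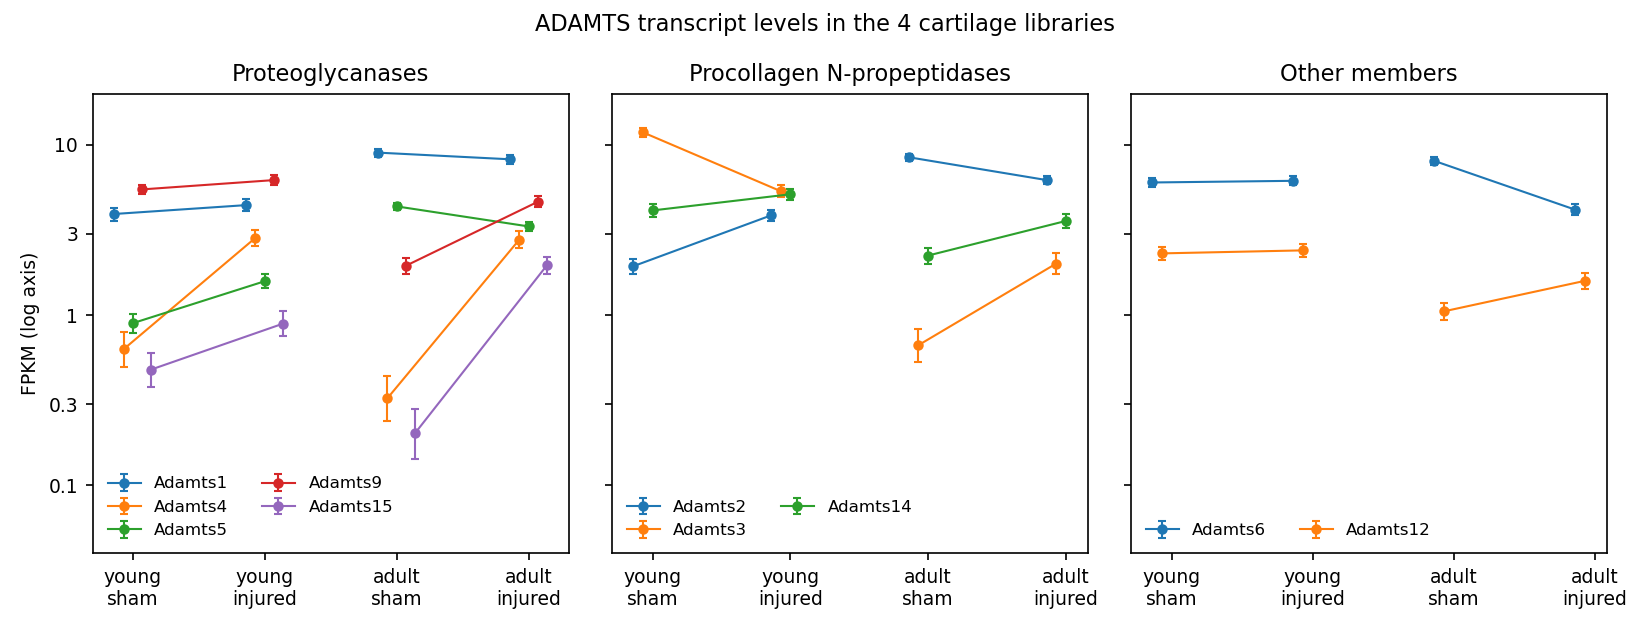
FPKM on a log axis for each of the 10 genes in the 4 libraries, in 3 panels by role, with 95% exact counting intervals as bars and a line joining sham to injured cartilage of the same age. Adamts4 and Adamts15 climb steeply from sham to injured cartilage in adults, from 0.325 to 2.77 FPKM and from 0.203 to 1.96 FPKM, while Adamts3 starts highest of all in young sham cartilage at 11.8 FPKM and is at 0.666 FPKM in adult sham cartilage.

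Adamts4, an aggrecanase that is inducible in chondrocytes by inflammatory cytokines, lies at chr1:171250129-171262267 of GRCm38.p6. It measured 0.630 FPKM in young sham, 2.84 FPKM in young injured, 0.325 FPKM in adult sham and 2.77 FPKM in adult injured cartilage. Both injured libraries were well above both sham libraries, and the injured libraries of the 2 ages were close to each other. The ratio of injured to sham FPKM was 4.51 (3.48 to 5.87) in young and 8.54 (6.17 to 11.9) in adult mice, and the log2 ratios of FPKM + 1 were 1.24 and 1.51. Between the injured libraries the FPKM ratio of adult to young was 0.976 (0.832 to 1.14), and the sign of this small difference turned under each other scaling. These values rest on few fragments in the sham libraries, about 73 in young and 44 in adult.

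Adamts15, a proteoglycanase that also cuts aggrecan and versican, lies at chr9:30899155-30922452. It was the lowest member in 3 of the 4 libraries, at 0.479 FPKM in young sham, 0.891 FPKM in young injured and 0.203 FPKM in adult sham cartilage, but reached 1.96 FPKM in adult injured cartilage. Only the adult injured library was above 1 FPKM. Adult injured cartilage was 9.68 times the adult sham level (6.86 to 14.0), and young injured cartilage 1.86 times the young sham level (1.39 to 2.49). On the log2 scale of FPKM + 1 the ratios were 1.30 and 0.35. The adult sham value corresponds to about 37 fragments, the fewest of any member.

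Adamts5, the main aggrecanase of mouse cartilage in models of osteoarthritis, lies at chr16:85858157-85901125. Its levels were 0.896 FPKM in young sham, 1.58 FPKM in young injured, 4.35 FPKM in adult sham and 3.32 FPKM in adult injured cartilage. Both adult libraries were above both young libraries. Adult sham cartilage held 4.85 times the young sham level (4.25 to 5.58), and adult injured cartilage 2.10 times the young injured level (1.87 to 2.35). Injury went with a higher value in young mice, by an FPKM ratio of 1.76 (1.51 to 2.07), and with a lower value in adult mice, by a ratio of 0.763 (0.702 to 0.830). On the log2 scale of FPKM + 1 neither reached 2-fold, at 0.44 and -0.31.

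The ratio of Adamts4 to Adamts5 within a library is the same with TPM and median-of-ratios scaling, which multiply a whole library by 1 factor. This ratio of FPKM was 0.703 in young sham and 1.80 in young injured cartilage, and for adult mice it was 0.0747 in sham and 0.836 in injured cartilage. Adamts5 thus outnumbered Adamts4 13.4 to 1 in adult sham cartilage, and the injured libraries had a larger share of Adamts4 at both ages. The sum of the pair was 1.53, 4.42, 4.67 and 6.09 FPKM, lowest in young sham cartilage.

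Adamts1 and Adamts5 are neighbours on chromosome 16, 55.0 kb apart. Adamts1, a proteoglycanase of versican and aggrecan, lies at chr16:85793827-85803113 and measured 3.92, 4.42, 8.99 and 8.22 FPKM. Like Adamts5 it was higher in both adult libraries than in both young libraries. Adult sham cartilage was at 2.29 times the young sham level (2.07 to 2.54), which on the log2 scale of FPKM + 1 is 1.02, just past 2-fold. The injured libraries differed from their shams by 0.14 in young and -0.12 in adult mice on that scale.

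Adamts9, a widely expressed versican protease, went the other way with age. It lies at chr6:92772699-92944450 and measured 5.47 FPKM in young sham, 6.20 FPKM in young injured, 1.95 FPKM in adult sham and 4.63 FPKM in adult injured cartilage. The adult sham library was low and the other 3 were within 1.34-fold of each other. The adult sham level was 2.81-fold below the young sham level (2.48 to 3.18), and the log2 ratio of FPKM + 1 was -1.13. With median-of-ratios scaling this ratio was -0.85 and with quantile normalization -0.73, so that it no longer reached 2-fold. Injured adult cartilage held 2.37 times the adult sham level (2.09 to 2.70), with a log2 ratio of 0.93. Adamts9 shares 1381 exon bases with A730049H05Rik and 424 with Gm15737 on the opposite strand. Whether counting used the strand is not given in the sources used here, so the part of these genes in the Adamts9 values was not tested. The transcript that the table lists for Adamts9 has a GENCODE counterpart of 1350 residues without a match to the zinc-binding site, whereas a longer GENCODE transcript of 1931 residues holds it, and which of the forms the fragments came from was not tested.

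In all, 5 of 5 proteoglycanases had a ratio above 0 after injury in young mice, as had 47.4% of all genes, and 1 of them was higher by 2-fold or more, as were 4.57% of genes. Their median was 0.35. In adult mice 3 of 5 were above 0, as were 67.2% of genes, and 2 by 2-fold or more, as were 6.90% of genes, with a median of 0.93. Adamts1 and Adamts5, the pair on chromosome 16, were those below 0.

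Of the procollagen proteases, Adamts3 differed most with age and Adamts14 least. Adamts3, a protease linked in cartilage to type II procollagen, lies at chr5:89673841-89883668. It was at 11.8 FPKM in young sham, 5.34 FPKM in young injured, 0.666 FPKM in adult sham and 2.01 FPKM in adult injured cartilage. All 4 libraries stood apart beyond counting error, with young sham highest and adult sham lowest. Adult sham cartilage was 17.8-fold below young sham (14.1 to 22.4), and adult injured cartilage 2.66-fold below young injured (2.26 to 3.14). Injured cartilage was lower than sham in young mice by 2.22-fold (2.001 to 2.45) and higher than sham in adult mice by 3.01-fold (2.31 to 3.93). On the log2 scale of FPKM + 1 these injury ratios were -1.02 for young and 0.85 for adult mice. With median-of-ratios scaling the young ratio was -0.99 and the ratio between the injured libraries was -0.998, both just short of 2-fold, while the ratio between the shams was -2.95 as deposited and -2.72 with that scaling.

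Adamts2, which processes types I, II and III procollagen in skin, tendon and other tissues, lies at chr11:50602085-50807573. Its levels were nearly a mirror of those of Adamts3, at 1.94 FPKM in young sham, 3.85 FPKM in young injured, 8.45 FPKM in adult sham and 6.20 FPKM in adult injured cartilage. Young sham was lowest and adult sham highest. Adult sham cartilage held 4.36 times the young sham level (3.90 to 4.89). Injured young cartilage was at 1.99 times its sham (1.75 to 2.26), and injured adult cartilage at 0.734 times its sham (0.682 to 0.790). Within a library, the ratio of Adamts3 to Adamts2 was 6.11 and 1.39 in the sham and injured cartilage of young mice, and 0.0789 and 0.324 in that of adult mice. Adamts3 was thus the more abundant of the pair in young and Adamts2 in adult libraries, and the injured libraries lay between the shams.

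Adamts14, the remaining procollagen protease, lies at chr10:61197112-61273419 and varied less, at 4.12, 5.12, 2.24 and 3.57 FPKM. It was higher in each injured library than in its sham, by FPKM ratios of 1.24 (1.11 to 1.39) and 1.60 (1.39 to 1.84), and did not reach 2-fold in any comparison. The summed level of the 3 procollagen proteases was 17.9, 14.3, 11.3 and 11.8 FPKM as deposited, highest in young sham cartilage and close to each other in the adult libraries. How close the adult sums lie depends on the scaling of the libraries.

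Adamts6 and Adamts12 are the members of neither branch. Adamts6, at chr13:104286518-104496695, measured 6.01, 6.14, 8.05 and 4.16 FPKM. The adult libraries held both its highest and its lowest value, and the young libraries were alike. Injured adult cartilage was 1.93-fold below its sham (1.77 to 2.12), a log2 ratio of FPKM + 1 of -0.81. With median-of-ratios scaling this was -1.06 and with quantile normalization -1.09, which made it the only member lower by 2-fold after injury in adults. In young mice the injury ratio was 0.03, and its sign turned with TPM scaling and with quantile normalization. Adamts12, at chr15:11064773-11349232, measured 2.30, 2.40, 1.05 and 1.59 FPKM and was higher in both young libraries. Adult sham cartilage was 2.19-fold below young sham in FPKM (1.89 to 2.54), or -0.69 on the log2 scale of FPKM + 1. Its injury ratios were 0.04 in young mice, below 0 with TPM scaling and with quantile normalization, and 0.34 in adult mice, below 0 with quantile normalization.

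**Figure D2:**
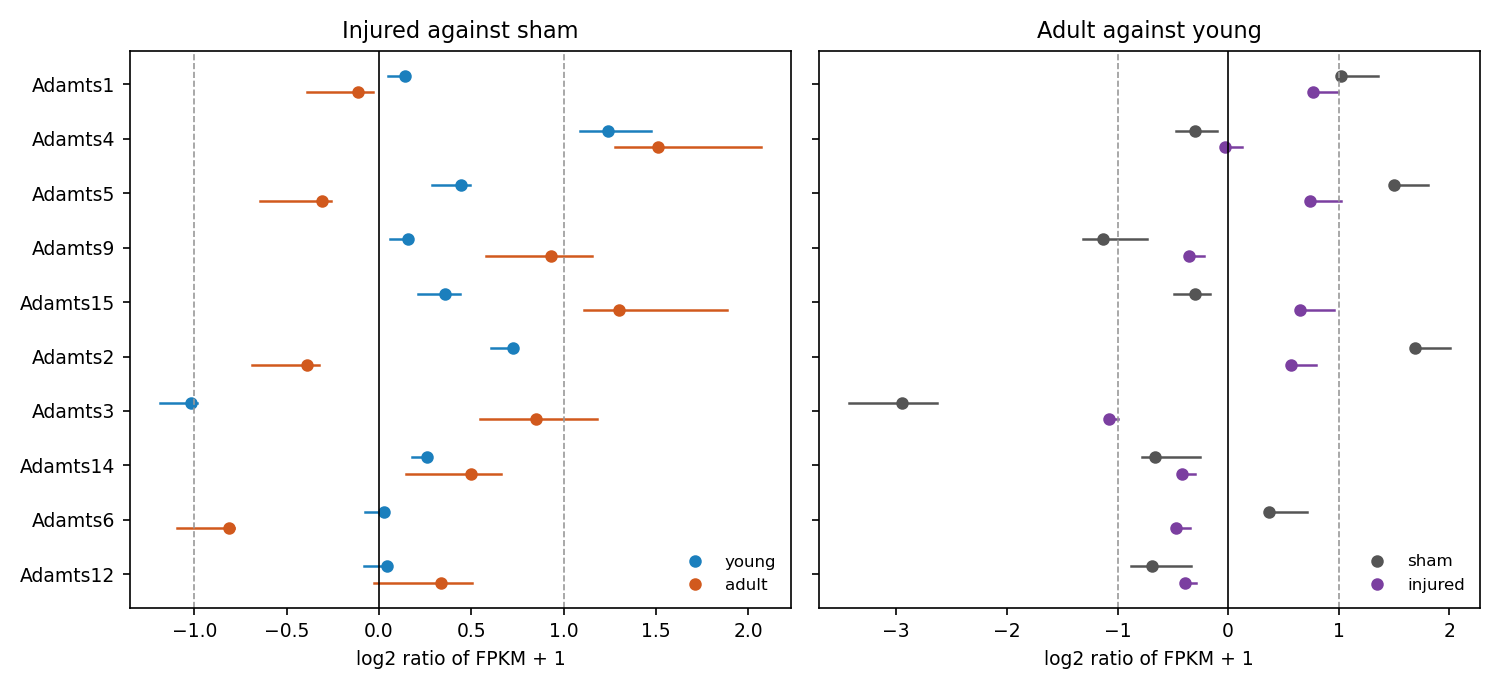
Log2 ratios of FPKM + 1 for the 10 genes, injured against sham cartilage on the left and adult against young cartilage on the right, with points for the values as deposited, horizontal lines for the span over TPM, median-of-ratios and quantile scaling, and dashed lines at 2-fold. Adamts4 lies beyond 2-fold after injury at both ages (1.24 and 1.51), and Adamts3 lies at -2.95 for age in sham cartilage, the farthest from 0 of the 40 points.

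The total over the 10 members was almost level in the values as deposited, at 37.6, 38.8, 36.3 and 38.4 FPKM, but it was made of different genes. Unlike the shares given next, this total changes when a whole library is rescaled by TPM or median-of-ratios scaling. Its level under those scalings was not computed. Adamts3 made up 31.5% of the total in young sham cartilage and 1.84% in adult sham cartilage. The leading member was Adamts3 in young sham, Adamts9 in young injured and Adamts1 in both adult libraries (24.8% and 21.4%). Between the sham libraries 48.3 percentage points of the composition moved from some members to others, and between the injured libraries 23.6 points. From sham to injured cartilage 17.9 points moved in young and 25.3 points in adult mice. Proteoglycanases held 30.3%, 41.1%, 43.6% and 54.4% of the total, and so the largest part in adult injured cartilage. Procollagen proteases went from 47.6% in young sham to 36.9%, 31.3% and 30.7% in the other libraries.

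Many neighbours in the order of levels did not differ beyond their counting intervals. In young sham cartilage Adamts3 stood clear of the rest, followed by Adamts6 with Adamts9, by Adamts14 with Adamts1 and by Adamts12 with Adamts2, each pair with overlapping intervals. Adamts5, Adamts4 and Adamts15 came last as a chain in which only neighbours overlapped. In young injured cartilage the 6 most abundant members formed an unbroken chain of overlapping intervals from Adamts9 and Adamts6 through Adamts3, Adamts14 and Adamts1 to Adamts2. In adult sham cartilage Adamts1, Adamts2 and Adamts6 led between 8.05 and 8.99 FPKM. Adamts2 overlapped with each of the other two, which did not overlap, and Adamts5 followed clear of them. In adult injured cartilage Adamts1 and then Adamts2 stood clear, and Adamts9, Adamts6, Adamts14 and Adamts5 followed as a chain.

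**Figure D3:**
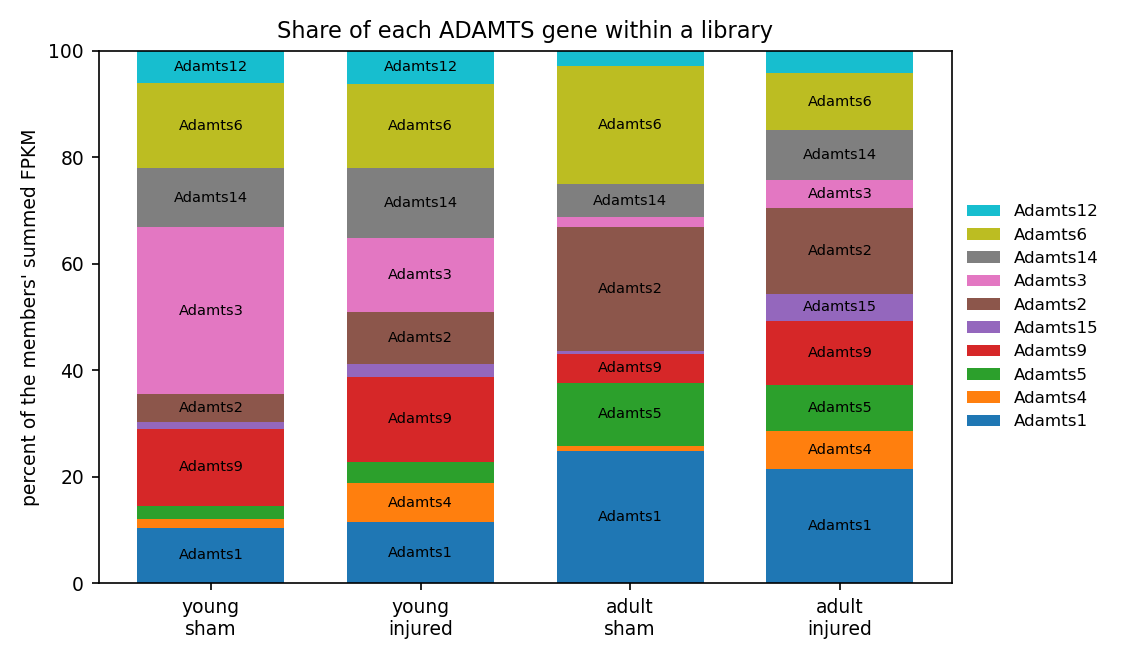
Stacked bars from 0 to 100 with the percent of the summed FPKM of the 10 genes held by each gene in each library, where proteoglycanases are at the bottom and procollagen proteases above them. Adamts3 shrinks from 31.5% in young sham to 1.84% in adult sham cartilage, while Adamts1 and Adamts2 together grow to nearly equal blocks of 24.8% and 23.3% there.

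The difference between the ages was smaller in injured than in sham cartilage for 64.2% of the 18181 genes and, not far from that share, for 8 of 10 members, all but Adamts6 and Adamts15. Adamts6 was no exception with any other scaling, where Adamts15 remained and, with quantile normalization, Adamts14 was added. The median size of the age ratio was 0.85 on the log2 scale in sham and 0.52 in injured cartilage over the members, and 0.33 and 0.21 over all genes. These age comparisons share no library with each other, but each shares a library with either injury comparison. The injury ratios of young and adult mice had opposite signs in 5 of 10 members, Adamts1, Adamts2, Adamts3, Adamts5 and Adamts6, and in 38.6% of genes. They differed by 2-fold or more in 2 of 10 members, Adamts2 and Adamts3, and in 6.25% of genes. With median-of-ratios or quantile scaling Adamts6 was added, against 5.67% and 5.37% of genes, and with TPM scaling Adamts9 and Adamts15 were, which made 4 members against 12.7% of genes.

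Of the 9 other ADAMTS genes in the table, Adamts10, a relative of Adamts6 with 60.2% identical residues that is linked to microfibrils, was the most abundant family member in every library. It measured 59.6, 41.4, 52.3 and 31.6 FPKM, which was 58.5%, 49.1%, 51.7% and 42.3% of the summed FPKM of all 19 genes. The 10 members held 36.9%, 46.0%, 35.9% and 51.4% of that sum, more in each injured library than in its sham. Adamts18 was far higher in adult sham cartilage than elsewhere, at 0.0530, 0.103, 9.36 and 0.954 FPKM, with a log2 ratio of FPKM + 1 of 3.30 for age in sham and -2.41 for injury in adult cartilage. It was the only gene of the 9 to reach 2-fold in any comparison, and with TPM scaling it did so between the injured libraries too (1.34). Adamts16 was between 1.60 and 2.75 FPKM and Adamts7 between 0.652 and 1.53 FPKM, and Adamts8, Adamts13, Adamts17, Adamts19 and Adamts20 stayed below 1 FPKM in every library. Over the 9 genes the median ratio was -0.02 for injury in young, -0.01 for injury in adult, -0.11 for age in sham and 0.03 for age in injured cartilage.

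ADAMTS-like genes encode relatives without the protease domain that bind the matrix. Of 7, after injury in young mice 0 were higher and 2 lower by 2-fold or more, Thsd4 at -1.36 and Adamtsl4 at -1.06, both genes of microfibril assembly. After injury in adult mice 0 were higher and 0 lower, with a median of -0.03, although Adamtsl2 at -0.99 passed 2-fold under every other scaling. Between the shams Adamtsl5 was higher in adults (1.19) and Adamtsl3 lower (-1.79). Between the injured libraries Adamtsl3 was again lower in adults (-1.31), from 5.73 FPKM in young injured to 1.72 FPKM in adult injured cartilage. With TPM scaling 2 were higher there, Thsd4 (1.17) and Adamtsl5 (1.11), and 2 lower, Adamtsl3 and Adamtsl2 (-1.06), and with quantile normalization 1 was higher.

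Among 8 inhibitors and clearance receptors, Timp3, the main natural inhibitor of ADAMTS4 and ADAMTS5, was more abundant than either in every library. It measured 90.0, 217, 155 and 265 FPKM, higher in each injured library, with log2 ratios of FPKM + 1 of 1.26 for young and 0.78 for adult mice. For each FPKM of Adamts4 and Adamts5 together there were 59.0, 49.0, 33.1 and 43.6 FPKM of Timp3, the fewest in adult sham cartilage. Timp1, an inhibitor directed mainly at matrix metalloproteinases, was at 106, 477, 53.0 and 461 FPKM, with ratios of 2.16 and 3.10 after injury. Reck, a membrane-anchored inhibitor of metalloproteases, was lower after injury in young mice by just over 2-fold, from 60.2 to 29.6 FPKM, and Timp4 lower after injury in adult mice (-1.95), from 5.77 to 0.759 FPKM. A2m, a plasma protein that traps proteases including aggrecanases, was at 51.7, 27.9, 0.899 and 1.52 FPKM, high in young and low in adult cartilage. Lrp1, the endocytic receptor that clears ADAMTS4 and ADAMTS5, stayed between 56.2 and 74.7 FPKM. Of these 8 genes, 2 were higher and 1 lower by 2-fold or more after injury in young mice, and 1 was higher and 1 lower in adult mice, with medians of 0.05 and 0.33. With age 1 was higher and 1 lower between the shams, and 0 were higher and 1 lower between the injured libraries. With median-of-ratios scaling Timp2 (1.27) and Timp3 (1.16) were higher in adults too between the shams, so that 3 were higher, and 2 were with quantile normalization. With TPM scaling Timp1 was lower in adults too between the shams (-1.02). Between the injured libraries Timp2 was higher in adults with TPM (1.09) and quantile scaling (1.02). The value of Reck was -0.98 with median-of-ratios scaling, short of 2-fold. Pzp was listed at 0 throughout.

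Of the proteoglycanase substrates, Acan and Vcan were higher by 2-fold or more after injury in adult mice. Acan, which encodes aggrecan, measured 405, 487, 214 and 559 FPKM, with an injury ratio (log2) of 0.26 in young mice and of 1.38 in adult mice. Vcan, which encodes versican, measured 22.7, 11.4, 3.77 and 9.50 FPKM, with injury ratios of -0.94 for young mice and 1.14 for adult mice. The adult sham library was the lowest for both, and with median-of-ratios scaling the adult ratio of Vcan was 0.92. For each FPKM of Adamts4 and Adamts5 together, there were 266, 110, 45.9 and 91.8 FPKM of Acan, again the fewest in adult sham cartilage. Comp, encoding a substrate of ADAMTS12 among others, was at 1324, 1984, 7203 and 4611 FPKM, higher in both adult libraries. Of 5 proteoglycan and COMP substrates, 0 reached 2-fold after injury in young mice, and 2 were higher and 0 lower in adult mice, or 1 higher with median-of-ratios or quantile scaling. TPM scaling made Vcan 2-fold lower in young mice (-1.08). With age 1 was higher and 1 lower between the shams, and 1 was higher and 0 lower between the injured libraries.

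Procollagen genes, the substrates of the other branch, were led by Col2a1, the main collagen of cartilage, at 9349, 7903, 3173 and 3750 FPKM. Col1a1, the collagen of bone and fibrous tissue, was higher after injury at both ages, with levels of 203, 615, 223 and 741 FPKM and ratios of 1.60 and 1.73. Of 6 procollagen genes, 1 was higher and 0 lower after injury in young mice, and 3 were higher (Col1a1, Col1a2 and Col3a1) and 0 lower in adult mice, with medians of 0.35 and 0.76. Between the shams 0 were higher and 2 were lower in adults, Col2a1 (-1.56) and Col3a1 (-1.17), and between the injured libraries only Col2a1 was lower (-1.08). Among 5 genes for the C-terminal side of procollagen processing, Tll1, a tolloid-like C-proteinase, was lower after injury in young mice (-1.95) and lower in adult than in young sham cartilage (-1.02). Bmp1, the main C-proteinase, stayed between 39.8 and 51.1 FPKM, and Tll2 was listed at 0 throughout. With median-of-ratios scaling, 4 of these ratios ended short of 2-fold: Col1a2 after injury in adults (0.81), Col3a1 (-0.78) and Tll1 (-0.72) between the shams, and Col2a1 between the injured libraries (-0.99). None of the 5 C-terminal genes was higher by 2-fold or more in any comparison.

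**Figure D4:**
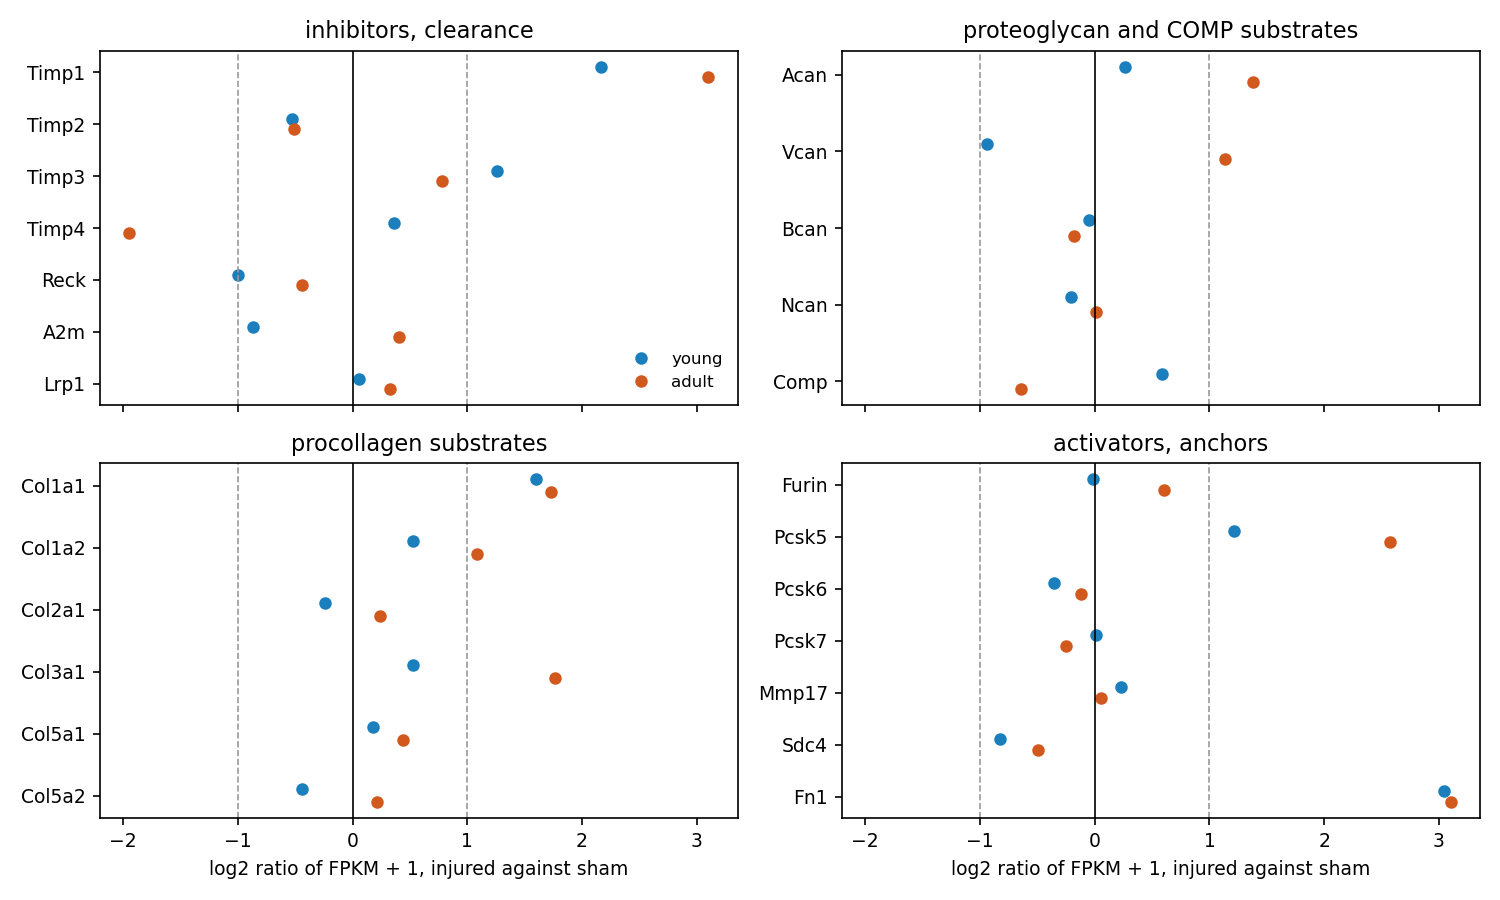
Log2 ratios of FPKM + 1, injured against sham, for genes of 4 lists around the proteases, with a point for young and a point for adult mice and dashed lines at 2-fold. Timp1, Pcsk5, Fn1 and Col1a1 lie beyond 2-fold at both ages, whereas Acan (0.26 and 1.38) and Vcan (-0.94 and 1.14) do so in adult mice only, Vcan not with median-of-ratios scaling (0.92).

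Among 7 activators and anchors, Pcsk5, a furin-like proprotein convertase, measured 4.62, 12.0, 0.928 and 10.5 FPKM, with ratios of 1.21 and 2.58 after injury. Furin itself did not reach 2-fold, with ratios of -0.02 and 0.60. Fn1, which encodes fibronectin, a matrix protein that binds ADAMTS4, measured 226, 1869, 442 and 3803 FPKM, with ratios of 3.04 and 3.10. Sdc4, a membrane proteoglycan linked to ADAMTS5 activation, was lower in both injured libraries than in their shams, at 170, 95.5, 269 and 191 FPKM. Pcsk5 and Fn1 were the genes of the list higher by 2-fold or more after injury at each age, and 0 were lower. With age 0 were higher and 1 was lower between the shams (Pcsk5), and 2 were higher and 0 lower between the injured libraries (Fn1 and Pcsk6). With median-of-ratios scaling 3 were higher between the shams, Fn1 (1.35), Pcsk6 (1.30) and Sdc4 (1.04), and with quantile normalization 2. Between the injured libraries Sdc4 was added as higher with every other scaling, at 1.18 with TPM, 1.08 with median-of-ratios and 1.15 with quantile scaling.

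Among 13 cytokines and transcription factors known to induce or regulate ADAMTS genes, Il1b, an inducer of Adamts4, measured 0.394, 8.27, 0.453 and 22.2 FPKM. Tnf was at 0.168, 2.02, 0.335 and 1.81 FPKM and Osm at 0.120, 1.55, 0.0849 and 1.44 FPKM. These 3 cytokines, like Adamts4, were higher in both injured libraries than in both sham libraries. Runx2, a transcription factor of hypertrophic chondrocytes and osteoblasts, was at 4.11, 4.34, 2.60 and 7.31 FPKM, with a ratio of 1.21 after injury in adult and 0.06 in young mice. Nfatc2 was lower after injury at both ages (-1.24 and -1.50). In young mice 3 of the 13 were higher and 1 lower by 2-fold or more, and in adult mice 4 were higher and 1 lower, with medians of 0.35 and 0.56. Between the shams Epas1, a hypoxia-inducible factor, was the only gene to reach 2-fold, higher in adults at 1.30, and between the injured libraries 2 were higher in adults, Il1b and Epas1. These counts moved with scaling. With median-of-ratios or quantile scaling, 2 were higher and 2 lower after injury in adults, as Tnf and Runx2 fell short of 2-fold and Epas1 was lower, and Tgfb1 was also higher between the shams (1.31 and 1.21). Between the injured libraries 4 were higher with TPM scaling and 3 with either of the others. Il17a was listed at 0 throughout.

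Markers of other cell types moved with the injury and with age. Beside the higher Adamts4 and Adamts15 of injured cartilage stand all 9 macrophage markers, and 5 of 6 endothelial markers were also higher by 2-fold or more at each age (in adults 4 with median-of-ratios and 3 with quantile scaling), with sums of 14.9, 74.6, 16.8 and 61.6 FPKM. Neutrophil markers summed to 1208, 2478, 1594 and 1921 FPKM, with 3 of 7 higher by 2-fold or more in young injured cartilage, 0 with TPM or quantile scaling, and 0 of 7 in adult injured cartilage. Fibroblast markers summed to 2915, 2727, 4038 and 4336 FPKM, with 2 of 8 higher and 1 lower after injury in young mice, and 3 higher and 1 lower in adult mice. Prg4, the lubricin gene of the joint surface, made up most of this sum except in young injured cartilage, at 2049, 421, 3565 and 2658 FPKM, whereas the small proteoglycan gene Lum was at 230, 1437, 129 and 778 FPKM. Beside the differences of Adamts1, Adamts2, Adamts3 and Adamts5 with age, 5 of 7 osteoblast markers were higher in adults, with sums of 821, 1534, 5784 and 6278 FPKM, and 7 of 9 chondrocyte markers were lower by 2-fold or more between the shams. Between the shams 5 of 9 macrophage markers and 3 of 5 muscle markers were also higher in adults. Of 5 erythroid markers 3 were lower (from 1 to 4 with other scalings) and 1 higher in adults between the shams, and 5 were lower between the injured libraries. The muscle markers had their highest sum in adult sham cartilage, at 477, 480, 1107 and 326 FPKM, and 4 of 5 were lower after injury in adults. Mural cell markers summed to 161, 85.6, 63.5 and 74.0 FPKM and tendon markers to 8.24, 14.8, 6.95 and 6.93 FPKM, and erythroid markers to 9617, 18376, 6947 and 3025 FPKM. No marker of these lists was at 0 in any library. The part of these cell types in the ADAMTS levels was not tested.

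The genes whose pattern over the 4 libraries was most like that of a member were sought for the most abundant member of each role, among the 8052 genes that averaged 5 FPKM or more. Likeness was the distance between log2 values of FPKM + 1, centred on their mean over the 4 libraries, and it is a description of 4 points only. For Adamts1 the nearest genes were Dalrd3 (0.063), Tle6 (0.089) and Spsb2 (0.098), and 375 genes lay within a distance of 0.5. For Adamts2 they were Cyb5r3 (0.19), Nr1h3 (0.22) and Pqlc3 (0.23), with 46 genes within that distance. For Adamts6 they were Idh3g (0.065), Sod1 (0.098) and Snora61 (0.12), with 535 genes within it. Adamts2, lowest in young sham and highest in adult sham cartilage with both injured libraries between, thus had the fewest genes near it of the 3.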

How the data were processed

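RNA was extracted from pooled frozen cartilage, and poly-A RNA was sequenced with a strand-specific kit as paired reads of 100 bases. The authors deposited FPKM per gene on mm10, divided by transcript length and mapped fragments. The submitters' processing notes name HISAT2 2.1.0, StringTie 1.3.4d, STAR and SAMtools without their roles, and the counting settings are not given in the sources used here.

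All 24532 genes were read and 18181 above 0 in at least 1 library were compared. The log2 ratio of FPKM + 1 was computed for 4 comparisons, and 2-fold or more was counted. With 1 library per group no test was run. The members and gene lists were chosen with earlier results of these data known. Named genes are the members, genes of the lists, and the 3 genes nearest in pattern to the most abundant member of each role. The symbols of 2 marker genes were matched by gene identifier. Fragment numbers were approximated from FPKM, transcript length and the step of the lowest values, where 48.1% to 49.8% of low genes lay within 0.1 of a step (20% if spread evenly). The step was searched within a set range and chosen to place the most of these same low genes near whole steps. This share is therefore not an independent check of the step. Members with several listed transcripts used their mean length. Other settings tried were pseudocounts of 0.1 and 5 FPKM, a 1 FPKM filter, TPM, median-of-ratios and quantile scaling, and thresholds of 1.5-fold and 3-fold. Gene positions came from RefSeq on GRCm38.p6 and coding sequences from GENCODE. The values of 1 gene that bears on a member are not reported here. The scripts were tested on simulated data. Calculations used Python 3.11.15, numpy 2.4.6, pandas 2.3.3, scipy 1.17.1 and matplotlib 3.10.9.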

Additional observations from a re-analysis of the deposited data

Results flagged for a closer look

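In 5 of the 10 genes the only injured library of one age lay above its sham and the only injured library of the other age lay below. The log2 ratio of FPKM + 1 for injury was higher in adult than in young mice for Adamts3, by 1.87. It was lower in adult than in young mice for the other four, with adult minus young differences of -1.12 for Adamts2, -0.84 for Adamts6, -0.75 for Adamts5 and -0.26 for Adamts1. The young injury ratios of FPKM were within counting error for Adamts1, at 1.13 (0.998 to 1.27), and for Adamts6, at 1.02 (0.936 to 1.12). With 1 library per group the differences between the ages were not tested. Adamts1, Adamts2, Adamts3 and Adamts5 had opposite signs under TPM, median-of-ratios and quantile scaling too, whereas Adamts6 did so under median-of-ratios scaling only. Opposite signs were found in 38.6% of all genes compared.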

How the results depend on the processing

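The filter of 1 FPKM changed no count of members and no ratio. The median ratio of the members kept its sign under every pseudocount and scaling, and for injury in adult it ran from 0.06 with quantile normalization to 0.60 with a pseudocount of 0.1 FPKM. A pseudocount of 0.1 FPKM gave 4 members higher for injury in adult, 3 lower for age in sham and 2 higher for age in injured cartilage, against 15.9%, 21.1% and 4.64% of all genes. With 5 FPKM, which is above most member levels, there were 0 higher and 0 lower for injury in young, 0 higher for injury in adult, 0 higher and 1 lower for age in sham, and 0 lower for age in injured cartilage, against 0.435% to 3.69% of genes. TPM scaling gave 4 higher for injury in adult and 1 higher for age in injured cartilage, where 11.1% and 3.44% of all genes were higher. Median-of-ratios scaling gave 0 lower for injury in young, 1 lower for injury in adult, 1 lower for age in sham and 0 lower for age in injured cartilage, where 1.14%, 2.50%, 5.55% and 2.63% of all genes were lower. Quantile normalization gave 1 lower for injury in adult and 1 lower for age in sham, where 2.69% and 5.27% of all genes were lower. At 1.5-fold there were 2 higher for injury in young, 4 higher and 1 lower for injury in adult, 4 lower for age in sham and 3 higher for age in injured cartilage, against 9.50%, 17.9%, 3.96%, 25.1% and 5.51% of genes. At 3-fold there were 0 higher and 0 lower for injury in young, 0 higher for injury in adult, 1 higher and 1 lower for age in sham and 0 lower for age in injured cartilage, against 0.270% to 2.78% of genes. The cause of the changes with scaling was not tested. Over all settings Adamts4 had ratios from 0.48 to 2.01 for injury in young and from 0.55 to 2.76 for injury in adult, and Adamts3 from -3.96 to -1.57 for age in sham cartilage. No paired analysis was possible because each group has 1 library, and for the same reason no library could be left out. Depth limits the low values most, since Adamts4 and Adamts15 in adult sham cartilage rest on about 44 and 37 fragments.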
